A study of Mus musculus with 17 samples.

Results

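Imprinted genes are transcribed mainly from the copy inherited from a single parent. They were followed here as a set of 42 genes across islets that lacked menin, the histone demethylase RBP2, or both. Members were the listed genes with a probe set annotated to that gene and to no other. This rule found 35 of the 42 among 19938 genes in all. Of the other 7, Snrpn, Ube3a, Mirg and Gnas were held only by probe sets that name several genes, and H19, Kcnq1ot1 and Zrsr1 had no probe set in the gene table. These 7 were not analysed here.

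Pancreatic islets of 2-month-old mice were profiled on 17 Affymetrix whole-transcript arrays, 1 sample per array, in 5 groups. The wt group (3 arrays) carried no Cre. The RIP-Cre group (3 arrays) carried the Cre recombinase under the rat insulin promoter, which is active chiefly in beta cells, and served as the control. The Men1 RIP-Cre group (3 arrays) carried Cre with floxed Men1, the Rbp2 RIP-Cre group (4 arrays) Cre with floxed Rbp2 (Kdm5a), and the Men1 Rbp2 RIP-Cre group (4 arrays) Cre with both floxed genes, called the double knockout below. All groups but wt therefore shared the Cre transgene, and cells of the islet in which the insulin promoter is silent were outside the reach of the deletion. Within a group the labels call the arrays repeats and do not say that they came from separate mice, so the tests measure the spread between these samples, which may be technical. Values are log2 intensities, and a difference of 1 is a doubling. Gene changes are log2 fold changes between group means with their SE, tested with limma and called at a Benjamini-Hochberg adjusted p under 0.05 over all 19938 genes.

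The parental copies of an imprinted region differ in DNA methylation or histone marks, of which some are set in the egg or the sperm. Most imprinted genes lie in clusters that share a control region. Many members act on growth: paternally expressed genes tend to promote it and maternally expressed genes tend to restrain it. Menin, the product of Men1, works in a histone H3 lysine 4 methyltransferase complex and is a tumour suppressor of endocrine cells, whereas RBP2 removes methyl groups from the same lysine. The arrays do not tell the parental copies apart, so each value is the sum of both.

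The promoters of 4 members are shown because the results turn on these genes and because imprinted promoters are often rich in CpG, the dinucleotide that carries DNA methylation. Each sequence is the stretch of 250 bases before an annotated transcript start, read 5′ to 3′ along the gene, from RefSeq on GRCm38.p6, with CpG in capitals. The Plagl1 window lies at chr10:13090582-13090831 (plus strand), the Nnat window at chr2:157559828-157560077 (plus strand), the Igf2 window at chr7:142658805-142659054 (minus strand) and the Grb10 window at chr11:12037421-12037670 (minus strand). For Igf2 and Grb10, which have 4 and 2 such windows, the window with the most CpG is shown.
Plagl1: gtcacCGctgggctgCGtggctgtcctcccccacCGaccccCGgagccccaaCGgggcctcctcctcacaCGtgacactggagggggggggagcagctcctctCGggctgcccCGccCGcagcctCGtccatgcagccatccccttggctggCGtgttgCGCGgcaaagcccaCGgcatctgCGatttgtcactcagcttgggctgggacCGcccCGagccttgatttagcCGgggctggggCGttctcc
Nnat: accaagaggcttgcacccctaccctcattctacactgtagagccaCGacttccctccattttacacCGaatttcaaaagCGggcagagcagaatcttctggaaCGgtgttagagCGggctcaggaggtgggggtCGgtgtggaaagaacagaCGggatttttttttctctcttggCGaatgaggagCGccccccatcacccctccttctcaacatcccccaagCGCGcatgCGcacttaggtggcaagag
Igf2: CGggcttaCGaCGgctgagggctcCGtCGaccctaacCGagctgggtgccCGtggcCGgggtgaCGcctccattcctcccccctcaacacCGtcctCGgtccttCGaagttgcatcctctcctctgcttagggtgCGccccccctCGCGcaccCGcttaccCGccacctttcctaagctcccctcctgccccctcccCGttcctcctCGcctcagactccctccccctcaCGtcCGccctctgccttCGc
Grb10: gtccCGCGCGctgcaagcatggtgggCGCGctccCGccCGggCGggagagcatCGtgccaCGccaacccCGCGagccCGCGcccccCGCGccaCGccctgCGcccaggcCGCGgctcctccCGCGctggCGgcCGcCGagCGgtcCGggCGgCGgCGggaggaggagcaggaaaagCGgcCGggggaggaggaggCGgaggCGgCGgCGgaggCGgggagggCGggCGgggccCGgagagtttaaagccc
The Grb10 window held 40 CpG, the Igf2 window 22, the Plagl1 window 19 and the Nnat window 12. The windows not shown held 8 CpG for Grb10 and 1, 10 and 6 for Igf2. The median was 6 over all 32851 windows of the table and 10 over the 39 windows of the 29 measured members that had one. TGCCGC, the core bound by ZFP57 (a zinc finger protein that keeps imprints methylated), was searched on both strands. It occurred in 8.70% of all windows and in 15.4% of the member windows, and among the 4 shown only in that of Plagl1. CCGCCC, a motif bound by the ARID domain of RBP2, was searched in the same way, and a TGCCGC followed by CC holds it too. It occurred in 32.7% of all windows and in 48.7% of the member windows, 5 times in the Grb10 window, 2 times in that of Plagl1, once in that of Igf2 and not in that of Nnat. These letter matches are descriptions and were not set against binding.

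Men1 itself fell in Men1 RIP-Cre islets by 1.06 (SE 0.11, adjusted p = 3.08e-05 in limma) and in the double knockout by 0.77 (adjusted p = 0.000558), and rose by 0.73 in Rbp2 RIP-Cre islets (adjusted p = 0.00359). Kdm5a changed by -0.22 in Rbp2 RIP-Cre islets (SE 0.11, adjusted p = 0.148) and by -0.02 with both genes lost (adjusted p = 0.896), and did not pass in either. The part of Kdm5a that its probe set reads is not known here, so this value does not check the labels. Array medians ran from 7.97 to 8.16 on the wt and RIP-Cre arrays and from 7.82 to 7.98 on the 11 knockout arrays, while the 75th percentile stayed between 8.92 and 8.95 on all 17, so a shift of the lower levels runs with the knockouts. The beta cell marker mean ran from 11.70 to 12.24 on the RIP-Cre arrays and from 12.45 to 12.51 on the Men1 RIP-Cre arrays, with 5 of 8 markers called higher, and RIP-Cre 3 had the lowest beta cell mean and the highest acinar mean (11.18) of its group. Schwann cell markers were lower in Men1 RIP-Cre (7.22 to 7.30 against 7.84 to 8.30; 4 of 4 measured called lower), as were 3 of 6 markers of other endocrine cells and 3 of 5 duct cell markers, beside 37.8% of all genes called lower, while 2 of 6 macrophage markers were called higher, beside 15.7% of all genes. In whole islets, fewer cells of a type and less RNA per cell cannot be told apart, and the part of cell makeup in the results was not tested.

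Loss of Men1 changed 22 of the 35 measured imprinted genes, in both directions. Against RIP-Cre, 10 of 35 members rose and 12 fell, which is 62.9% of the members beside 53.5% of all genes called in this comparison (15.7% higher and 37.8% lower). Under cyclic loess scaling, the all-gene calls split as 3677 higher and 3198 lower in place of 3126 and 7534. By size, 7 of the 35 members (20.0%) were called with at least a 2-fold change, beside 2.79% of all genes: Nnat, Plagl1, Rian, Ndn, Igf2 and Ddc rose and Grb10 fell. The count was 6 beside 2.64% of all genes under cyclic loess scaling, under which Ddc came to 0.93, and between 6 and 8 with any single array left out. With the array median as a covariate it was 4, beside 0.577% of all genes, and of the 22 calls of any size those of Igf2, Ndn, Grb10 and Plagl1 held. The median change of the members was -0.14, beside -0.23 for all genes. Members were chosen with earlier results of these data known, and the 2-fold counts were added after the data were seen. These shares therefore describe the list and do not test imprinted genes as a class. The 19 tested imprinted genes outside the set changed by -0.77 to 1.00 with Men1 loss.

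**Figure D1:**
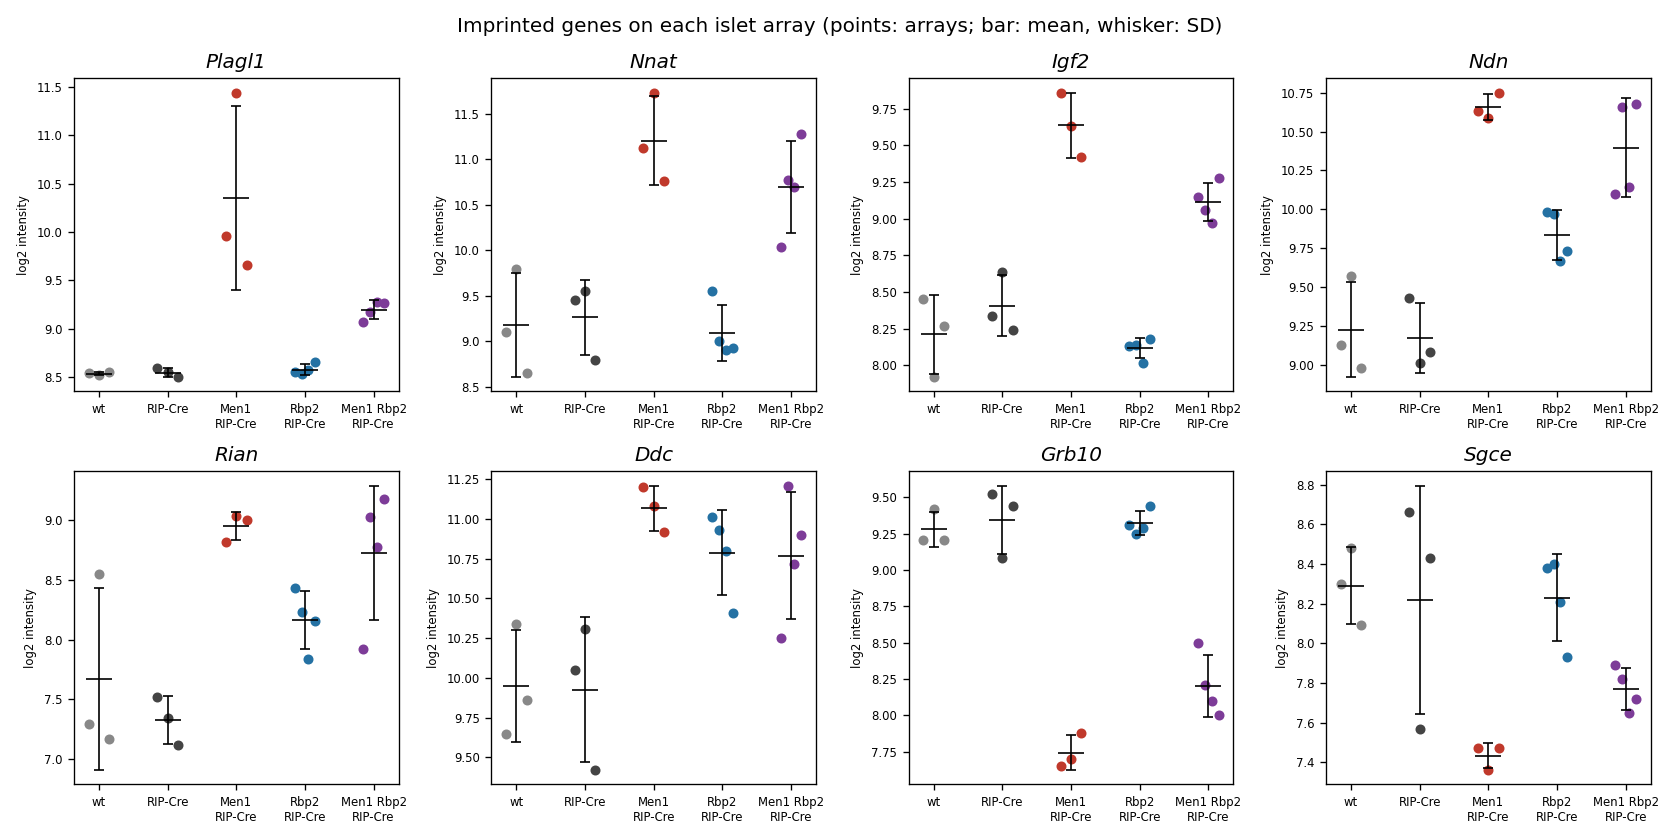
Log2 intensity (vertical axis) of 8 members on each of the 17 arrays, by group (horizontal axis); each point is 1 array, each bar the group mean and each whisker the SD. Igf2, Plagl1, Nnat, Ndn, Rian and Ddc were higher and Grb10 and Sgce lower on all 3 Men1 RIP-Cre arrays than on all RIP-Cre and wt arrays.

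Among the members that act on insulin and IGF signalling, Grb10 fell and Igf2 and Igf2r rose after Men1 loss. Grb10, an adaptor protein that binds the insulin and IGF1 receptors and restrains their signalling, read 9.52, 9.08 and 9.44 on the RIP-Cre arrays, 7.65, 7.70 and 7.88 on the Men1 RIP-Cre arrays, 9.31, 9.25, 9.29 and 9.44 on the Rbp2 RIP-Cre arrays, 8.50, 8.21, 8.10 and 8.00 with both genes lost and 9.21, 9.42 and 9.21 on the wt arrays. The Men1 RIP-Cre arrays were lowest, the double knockout arrays came next, and neither overlapped any other group. Grb10 fell by 1.60 in Men1 RIP-Cre islets (3.04-fold, SE 0.13, adjusted p = 2.81e-06 in limma), and this call held under every alternative tried (-1.47, adjusted p = 0.000942, with the array median as a covariate). Igf2, the growth factor that acts through those receptors, read 8.34, 8.64 and 8.24 on the RIP-Cre arrays, 9.86, 9.63 and 9.42 with Men1 lost, 8.13, 8.14, 8.02 and 8.18 with Rbp2 lost, 9.15, 9.06, 8.97 and 9.28 with both lost and 8.45, 7.92 and 8.27 in wt. Here the Men1 RIP-Cre arrays were highest, followed without overlap by the double knockout arrays. The rise with Men1 loss was 1.23 (2.35-fold, SE 0.14, adjusted p = 5.69e-05), and 1.16 with the array median as a covariate (adjusted p = 0.0120). Igf2r, the receptor that takes IGF2 to the lysosome for breakdown, rose by 0.38 (SE 0.08, adjusted p = 0.00217).

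Plagl1, a zinc finger transcription factor that regulates other imprinted genes and is overexpressed in transient neonatal diabetes, stood out by its spread. It read 8.59, 8.55 and 8.50 on the RIP-Cre arrays, 9.96, 11.44 and 9.66 on the Men1 RIP-Cre arrays, 8.55, 8.53, 8.57 and 8.66 on the Rbp2 RIP-Cre arrays, 9.07, 9.17, 9.28 and 9.27 with both genes lost and 8.54, 8.52 and 8.55 in wt. All 3 Men1 RIP-Cre arrays lay above every other array, with array 2 far above the other two, and the double knockout arrays lay between. Its change with Men1 loss was 1.81 (3.50-fold, SE 0.28, adjusted p = 0.000383), and 1.26 (adjusted p = 8.56e-06) without Men1 RIP-Cre array 2.

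Nnat, Ndn and Ddc rose together with Men1 loss. Nnat encodes neuronatin, a small membrane protein of the endoplasmic reticulum that supports insulin processing in beta cells. It read 9.45, 9.55 and 8.79 on the RIP-Cre arrays, 11.12, 11.73 and 10.76 with Men1 lost, 9.55, 9.00, 8.90 and 8.93 with Rbp2 lost, 10.04, 10.77, 10.69 and 11.28 with both lost and 9.10, 9.79 and 8.65 in wt. Every array without Men1 lay above every array with it. The rise was 1.94 (3.84-fold, SE 0.33, adjusted p = 0.000630 in limma), but 0.89 with the array median as a covariate, where the call ended (adjusted p = 0.195). Ndn, which encodes necdin, a growth suppressor of the MAGE family, read 9.43, 9.01 and 9.08 in RIP-Cre, 10.63, 10.59 and 10.75 in Men1 RIP-Cre, 9.98, 9.97, 9.67 and 9.73 in Rbp2 RIP-Cre, 10.10, 10.66, 10.14 and 10.68 with both genes lost and 9.13, 9.57 and 8.98 in wt. The 3 kinds of knockout arrays all lay above the 6 control arrays, with the Rbp2 RIP-Cre arrays lowest among them. Ndn rose by 1.48 with Men1 loss (2.80-fold, SE 0.18, adjusted p = 8.02e-05; 1.11, adjusted p = 0.0265, with the array median as a covariate). Ddc, the decarboxylase that makes dopamine and serotonin and the chromosome 11 neighbour of Grb10, read 10.05, 10.31 and 9.42 in RIP-Cre, 11.20, 11.08 and 10.92 in Men1 RIP-Cre, 11.01, 10.93, 10.80 and 10.41 in Rbp2 RIP-Cre, 10.25, 11.21, 10.72 and 10.90 with both genes lost and 9.65, 10.34 and 9.86 in wt. Men1 RIP-Cre did not overlap either control group, whereas array 1 of the double knockout lay inside the RIP-Cre range. Ddc rose by 1.14 with Men1 loss (2.20-fold, SE 0.25, adjusted p = 0.00248), opposite to Grb10, and by 0.34 (adjusted p = 0.523) with the array median as a covariate. On wt array 2, which had the lowest median of the wt arrays, Nnat, Ndn and Ddc were each at their wt maximum, and on array 1 of the double knockout each was at its group minimum.

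The chromosome 6 members fell with Men1 loss, apart from Asb4, Copg2 and Klf14. Peg10, a gene derived from a retrotransposon, read 8.39, 8.26 and 8.47 on the RIP-Cre arrays, 7.59, 7.72 and 7.84 on the Men1 RIP-Cre arrays, 8.16, 8.26, 8.11 and 8.15 on the Rbp2 RIP-Cre arrays, 8.12, 8.22, 7.94 and 8.55 with both genes lost and 8.22, 8.34 and 8.15 in wt. The Men1 RIP-Cre arrays were below all others. Peg10 fell by 0.66 (SE 0.12, adjusted p = 0.00124). Its neighbour Sgce, which encodes epsilon-sarcoglycan, read 8.66, 7.57 and 8.43 in RIP-Cre, 7.47, 7.36 and 7.47 in Men1 RIP-Cre, 8.38, 8.40, 8.21 and 7.93 in Rbp2 RIP-Cre, 7.89, 7.82, 7.65 and 7.72 with both genes lost and 8.30, 8.48 and 8.09 in wt. Men1 RIP-Cre lay below all others here too, with RIP-Cre array 2 close above. Sgce fell by 0.79 (SE 0.20, adjusted p = 0.00622). In the same cluster Ppp1r9a (neurabin, an actin-binding scaffold) fell by 0.36 (SE 0.10, adjusted p = 0.00746) and Asb4 (a substrate receptor of a ubiquitin ligase) rose by 0.49 (SE 0.13, adjusted p = 0.00652). Mest, a hydrolase-like protein tied to fat cell size, read 8.04, 7.37 and 7.58 in RIP-Cre, 6.96, 7.07 and 7.07 in Men1 RIP-Cre, 7.85, 7.76, 7.62 and 7.52 in Rbp2 RIP-Cre, 7.44, 7.70, 7.13 and 7.23 with both genes lost and 7.62, 8.60 and 7.57 in wt. Men1 RIP-Cre was lowest and did not overlap any other group. Its fall of 0.63 (SE 0.23, adjusted p = 0.0296) lost its call without RIP-Cre array 1 (-0.44, adjusted p = 0.130) or array 3 (-0.67, adjusted p = 0.0606), without any of Men1 RIP-Cre arrays 1 to 3 (-0.59, -0.65 and -0.65), and under cyclic loess scaling (-0.33, adjusted p = 0.357). Copg2, a coat protein of Golgi vesicles, differed by 0.06 and Klf14, a transcription factor without introns, by -0.41, and neither passed the test (adjusted p = 0.541 and 0.0685).

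In the Dlk1-Dio3 cluster on chromosome 12 the 3 protein-coding members fell and the long RNAs moved apart. Rtl1, a retrotransposon-derived gene expressed from the paternal copy, read 8.22, 8.06 and 8.53 in RIP-Cre, 7.39, 7.56 and 7.55 in Men1 RIP-Cre, 7.80, 8.20, 7.87 and 8.36 in Rbp2 RIP-Cre, 8.02, 7.45, 7.97 and 7.71 with both genes lost and 8.60, 8.33 and 8.44 in wt. All Men1 RIP-Cre arrays were below every RIP-Cre, Rbp2 RIP-Cre and wt array, and overlapped the double knockout. Rtl1 fell by 0.77 (SE 0.17, adjusted p = 0.00254). Dio3, the deiodinase that inactivates thyroid hormone, read 7.05, 6.41 and 6.92 in RIP-Cre, 6.28, 5.97 and 6.27 in Men1 RIP-Cre, 5.91, 6.32, 6.49 and 6.37 in Rbp2 RIP-Cre, 6.07, 6.15, 6.13 and 6.17 with both genes lost and 6.77, 6.32 and 6.87 in wt. These levels lay near or below the 25th percentile of all genes (6.92). Dio3 fell by 0.62 with Men1 loss (SE 0.18, adjusted p = 0.00975), and by 0.23 under cyclic loess scaling, where the call ended (adjusted p = 0.190). Dlk1, a Notch-like membrane protein of precursor cells, fell by 0.47 (SE 0.14, adjusted p = 0.0101; -0.29, adjusted p = 0.0635, without RIP-Cre array 3). Meg3, a maternally expressed long RNA with growth-restraining activity, fell by 0.35 (SE 0.11, adjusted p = 0.0155; -0.26, adjusted p = 0.0843, without Men1 RIP-Cre array 1). Rian, the maternally expressed long RNA that hosts small nucleolar RNAs, read 7.52, 7.34 and 7.12 in RIP-Cre, 8.82, 9.04 and 9.00 in Men1 RIP-Cre, 8.43, 8.23, 7.84 and 8.16 in Rbp2 RIP-Cre, 7.92, 9.03, 8.78 and 9.18 with both genes lost and 7.29, 8.55 and 7.17 in wt. Men1 RIP-Cre lay above every control array, though wt array 2 stood more than 1 log2 unit above the other wt arrays. Rian rose by 1.63 with Men1 loss (3.09-fold, SE 0.32, adjusted p = 0.00145), and by 0.77 with the array median as a covariate (adjusted p = 0.328).

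Of the chromosome 7 and remaining members, Cd81, a tetraspanin of the Kcnq1ot1 cluster, read 10.28, 9.71 and 9.72 in RIP-Cre, 10.74, 10.49 and 10.57 in Men1 RIP-Cre, 10.74, 10.71, 10.29 and 10.84 in Rbp2 RIP-Cre, 10.71, 10.82, 10.32 and 10.74 with both genes lost and 10.29, 10.43 and 10.06 in wt. Every knockout array lay above every RIP-Cre array, and the Rbp2 RIP-Cre and double knockout arrays overlapped the wt arrays. Cd81 rose by 0.70 with Men1 loss (SE 0.17, adjusted p = 0.00520). In the same cluster Ascl2, a helix-loop-helix factor of the placenta, fell by 0.41 (adjusted p = 0.00296; -0.09, adjusted p = 0.320, under cyclic loess scaling), and Phlda2, Slc22a18 and Tssc4 did not pass. Peg12, a GSK3-binding protein gene of the Prader-Willi region, read 8.68, 8.48 and 9.20 in RIP-Cre, 7.99, 7.93 and 8.09 in Men1 RIP-Cre, 7.84, 7.94, 8.61 and 8.32 in Rbp2 RIP-Cre, 8.35, 7.92, 8.04 and 8.12 with both genes lost and 8.89, 8.33 and 8.68 in wt. Men1 RIP-Cre lay below both control groups. Peg12 fell by 0.78 (SE 0.20, adjusted p = 0.00644), its neighbour Magel2, a regulator of ubiquitin ligases, fell by 0.43 (SE 0.12, adjusted p = 0.00921), and Mkrn3 did not pass (-0.28, adjusted p = 0.112), while Ndn of the same cluster rose as given above. In the Peg3 cluster Usp29, a deubiquitinase, rose by 0.41 (SE 0.11, adjusted p = 0.00792), and Zim1, a zinc finger gene, did not pass (-0.43, adjusted p = 0.0533). Peg3 itself, of the same kind, ran from 12.93 to 13.30 on the RIP-Cre arrays and from 13.12 to 13.25 on the Men1 RIP-Cre arrays and did not pass in any comparison, and neither did Impact, Dcn and Rasgrf1. The calls of some members depended on the scale: under cyclic loess scaling Peg3 (-0.49, adjusted p = 0.00954), Zim1 (-0.71, adjusted p = 0.00416), Impact (-0.39, adjusted p = 0.0115) and Phlda2 (0.31, adjusted p = 0.0456) passed with Men1 loss, and Meg3 came to -0.85 (adjusted p = 0.00219).

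**Figure D2:**
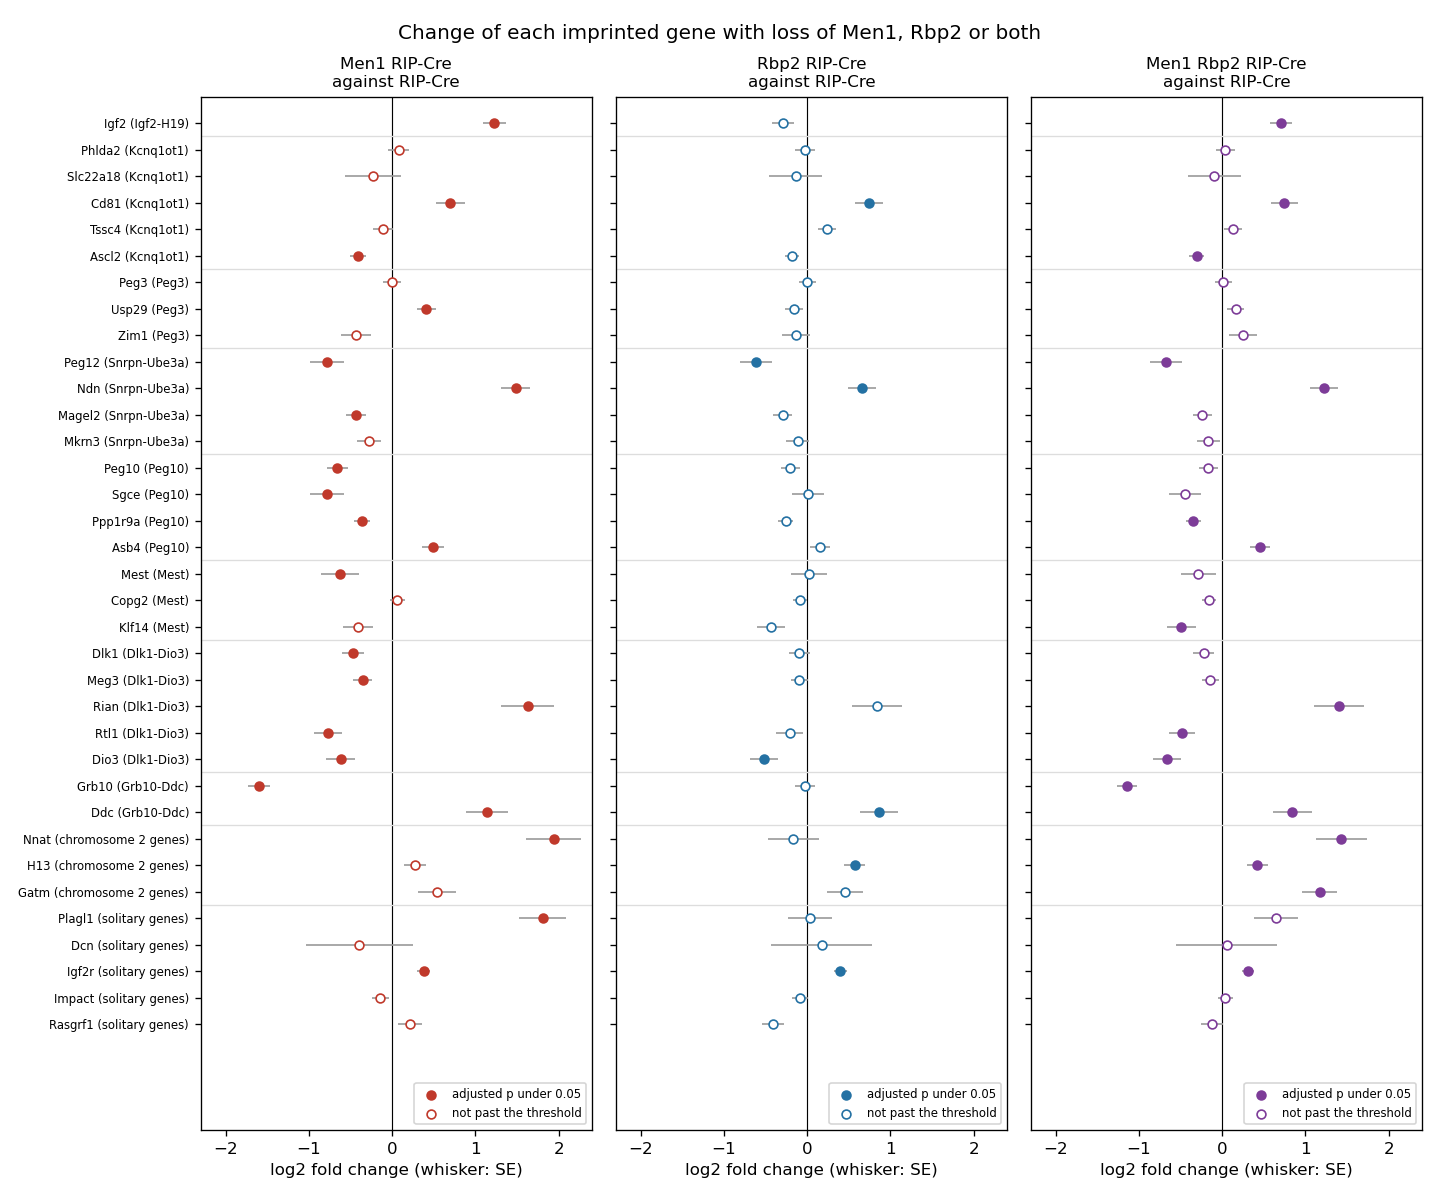
Log2 fold change against RIP-Cre (horizontal axis, with SE bars) of the 35 measured members in Men1 RIP-Cre, Rbp2 RIP-Cre and double knockout islets; filled points passed limma at an adjusted p under 0.05. With Men1 lost, 22 of 35 points are filled, and with Rbp2 lost 7 of 35.

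Fewer members were called with Rbp2 loss alone than with Men1 loss, and the same held for all genes. Against RIP-Cre, 5 members rose and 2 fell (20.0% of the 35, beside 13.4% of all genes, 6.7% higher and 6.7% lower), and 0 of 35 reached a 2-fold change, beside 0.381% of all genes. At that share of all genes, a count of 0 in 35 says little about the members. The members called higher were Ddc (0.86, SE 0.23, adjusted p = 0.0298), Cd81 (0.74, SE 0.16, adjusted p = 0.0169), Ndn (0.66, SE 0.17, adjusted p = 0.0252), H13 (0.57, SE 0.13, adjusted p = 0.0172) and Igf2r (0.40, SE 0.07, adjusted p = 0.0106). H13, the signal peptide peptidase gene, read 11.54, 11.71 and 11.40 in RIP-Cre, 11.70, 11.85 and 11.92 in Men1 RIP-Cre, 12.18, 12.17, 12.08 and 12.05 in Rbp2 RIP-Cre, 11.84, 12.16, 11.78 and 12.11 with both genes lost and 11.45, 11.95 and 11.51 in wt. The Rbp2 RIP-Cre arrays lay above both control groups. Those called lower were Peg12 (-0.61, SE 0.19, adjusted p = 0.0469) and Dio3 (-0.52, SE 0.17, adjusted p = 0.0479), and for both the Rbp2 RIP-Cre arrays overlapped the RIP-Cre arrays. Grb10 (-0.02), Nnat (-0.17), Plagl1 (0.03) and Igf2 (-0.29) did not pass in Rbp2 RIP-Cre islets.

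With single arrays left out the calls after Rbp2 loss ended, apart from that of Igf2r, while the changes kept their sign. Calls in all genes moved too, from 2672 with all arrays to between 223 and 3382 with 1 array left out. Without RIP-Cre array 3, 6 of the 7 calls ended, with Cd81 at 0.65 (adjusted p = 0.0898), Ndn at 0.62 (0.112), Ddc at 0.61 (0.169), H13 at 0.49 (0.0923), Peg12 at -0.40 (0.247) and Dio3 at -0.46 (0.192). Without Rbp2 RIP-Cre array 1 the same 6 calls ended, at changes of 0.71 for Cd81, 0.62 for Ndn, 0.79 for Ddc, 0.55 for H13, -0.50 for Peg12 and -0.40 for Dio3. Peg12 and Dio3 also lost their calls without RIP-Cre array 1 (-0.66 and -0.39) and without Rbp2 RIP-Cre array 4 (-0.66 and -0.55), and Peg12, Dio3, Ndn and Ddc without Rbp2 RIP-Cre array 2 (-0.53, -0.54, 0.62 and 0.81). When all 6 arrays of wt and RIP-Cre together served as the control, 13 members were called (37.1%, beside 31.2% of all genes). Under cyclic loess scaling Cd81, Ndn, Ddc and Igf2r kept their calls, and H13 (0.26), Peg12 (-0.52) and Dio3 (-0.28) lost theirs. Peg3 (-0.44), Meg3 (-0.55) and Rasgrf1 (-0.51) gained one. With the array median as a covariate 0 members were called, beside 0.211% of all genes.

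With both genes lost, imprinted genes again changed in both directions. Against RIP-Cre, 10 members rose and 7 fell (48.6% of the 35, beside 33.7% of all genes, 13% higher and 20.6% lower). At least 2-fold were 5 members (14.3%), beside 1.23% of all genes: Nnat rose by 1.43 (SE 0.31, adjusted p = 0.00487), Rian by 1.40 (SE 0.30, adjusted p = 0.00482), Ndn by 1.22 (SE 0.17, adjusted p = 0.000548) and Gatm by 1.17, and Grb10 fell by 1.14 (SE 0.12, adjusted p = 0.000154). Gatm, the enzyme of the first step of creatine synthesis, read 9.14, 8.84 and 9.21 in RIP-Cre, 9.72, 9.62 and 9.46 in Men1 RIP-Cre, 9.45, 9.38, 9.02 and 10.22 in Rbp2 RIP-Cre, 9.97, 10.52, 10.35 and 10.09 with both genes lost and 8.84, 8.51 and 8.93 in wt. Men1 RIP-Cre arrays were above both control groups and, except for Rbp2 RIP-Cre array 4, the double knockout arrays were above all others. Gatm passed the test in the double knockout (SE 0.21, adjusted p = 0.00244) and not with Men1 loss (0.54, adjusted p = 0.0554) or Rbp2 loss (0.45, adjusted p = 0.127). Its interaction did not pass (0.18, adjusted p = 0.664). The 2-fold count in the double knockout was also added after the data were seen. The 19 tested imprinted genes outside the set changed by -0.54 to 0.63 there.

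Further calls in the double knockout were Igf2 (0.71, SE 0.13, adjusted p = 0.00288), Cd81 (0.74, SE 0.16, adjusted p = 0.00531) and Igf2r (0.31, SE 0.07, adjusted p = 0.00831). These 3 and the 5 members with at least 2-fold changes kept their calls with each array left out in turn, and with the array median as a covariate Ndn, Grb10 and Gatm kept theirs while Nnat came to 0.68 (adjusted p = 0.208), Rian to 0.79 (0.200), Igf2 to 0.66 (0.0691), Cd81 to 0.57 (0.155) and Igf2r to 0.24 (0.139). The remaining 9 calls ended without RIP-Cre array 3: Ddc (0.59), Asb4 (0.42), H13 (0.35), Ascl2 (-0.27), Ppp1r9a (-0.31), Rtl1 (-0.35), Klf14 (-0.38), Peg12 (-0.47) and Dio3 (-0.60). Scaling moved some of these further: under cyclic loess H13 came to 0.07 (adjusted p = 0.597), Ascl2 to -0.10 (adjusted p = 0.270) and Rtl1 to -0.33 (adjusted p = 0.0757), and under quantile scaling H13 came to 0.10 (adjusted p = 0.374) and Ascl2 to -0.13 (adjusted p = 0.135). Klf14, Rtl1 and H13 also lost theirs without double knockout array 2 (-0.43, -0.37 and 0.36) or array 4 (-0.45, -0.46 and 0.38), Ascl2 without double knockout array 4 (-0.28), and Klf14 without RIP-Cre array 2 (-0.51). Sgce, Mest, Peg10, Dlk1 and Meg3, which fell with Men1 loss, did not pass in the double knockout (-0.45, -0.29, -0.17, -0.22 and -0.14), and the direct comparison of the double knockout with Men1 RIP-Cre passed for Peg10 alone among them. Plagl1 came to 0.65 in the double knockout (SE 0.26, adjusted p = 0.0653) and did not pass.

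The double knockout was next compared with each single knockout; these comparisons share arrays with those above. Against Rbp2 RIP-Cre, which shows Men1 loss on the background of Rbp2 loss, 2 members rose and 1 fell, beside 1.2% of all genes called (0.582% higher and 0.617% lower). Nnat rose by 1.60 (3.03-fold, SE 0.28, adjusted p = 0.00932), Igf2 by 1.00 (2.00-fold, SE 0.12, adjusted p = 0.000590) and Grb10 fell by 1.12 (2.17-fold, SE 0.12, adjusted p = 9.08e-05). These 3 calls held with each array left out and under the other alternatives, the array median as a covariate included (1.52, 0.99 and -1.11). The 4 double knockout arrays did not overlap the 4 Rbp2 RIP-Cre arrays for any of the 3. Against Men1 RIP-Cre, which shows Rbp2 loss on the background of Men1 loss, 1 member rose and 1 fell, beside 1.67% of all genes called (1.1% higher and 0.567% lower). Plagl1 was lower by 1.16 (SE 0.26, adjusted p = 0.0344) and Peg10 higher by 0.49 (SE 0.12, adjusted p = 0.0432). Neither call was stable. Plagl1 lost its call without Men1 RIP-Cre array 1 (-1.35, adjusted p = 0.0509) or any of double knockout arrays 1 to 4 (-1.11, -1.15, -1.18 and -1.18), and with the repeat number as a block (-1.18, adjusted p = 0.0537). Without Men1 RIP-Cre array 2, the array far above its group, the Plagl1 difference came down to -0.61 and stayed called (adjusted p = 0.00439). Peg10 lost its call without Men1 RIP-Cre array 1 (0.43, adjusted p = 0.257), array 2 (0.49) or array 3 (0.55), without double knockout arrays 1, 2 or 4 (0.52, 0.49 and 0.38), and under cyclic loess scaling (0.44, adjusted p = 0.0833).

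The interaction asks whether Rbp2 loss acted differently with Men1 lost than with Men1 present. It passed for 3 members, 1 positive and 2 negative, beside 3.39% of all genes (1.78% positive and 1.61% negative): Peg10 (0.69, SE 0.17, adjusted p = 0.0420), Ndn (-0.93, SE 0.24, adjusted p = 0.0482) and Igf2r (-0.47, SE 0.11, adjusted p = 0.0409). Peg10 changed by -0.20 with Rbp2 loss alone and by 0.49 with Rbp2 loss added to Men1 loss. Ndn changed by 0.66 and -0.26, and Igf2r by 0.40 and -0.07, in the same order. All 3 calls ended without RIP-Cre array 3, any of the Men1 RIP-Cre arrays, Rbp2 RIP-Cre arrays 1 or 2, or double knockout array 1, and those of Ndn and Igf2r without double knockout array 3. Over these settings Peg10 ran from 0.63 to 0.76, Ndn from -0.96 to -0.83 and Igf2r from -0.48 to -0.42. For Plagl1, whose level in the double knockout lay between those of RIP-Cre and Men1 RIP-Cre, the interaction was -1.19 (adjusted p = 0.0628) and did not pass, and without Men1 RIP-Cre array 2 it was -0.64 and passed (adjusted p = 0.0460).

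**Figure D3:**
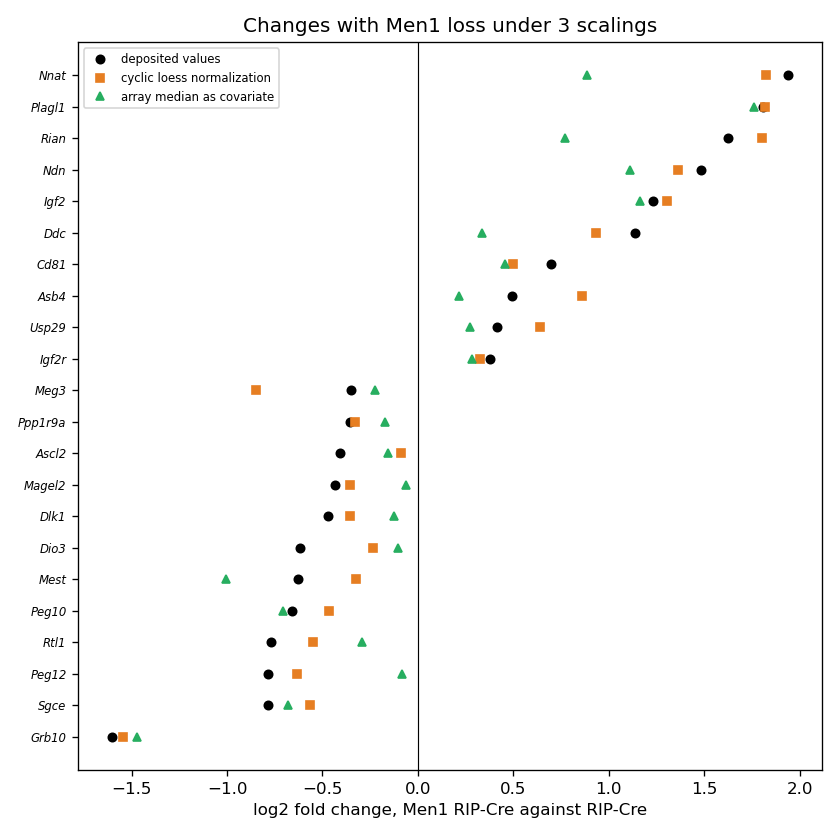
Log2 fold change with Men1 loss (horizontal axis) of the 22 called members, 1 per line, from the deposited values, after cyclic loess scaling and with the array median as a covariate, as 3 kinds of symbol. Grb10 stayed at -1.47 and Igf2 at 1.16 with the array median as a covariate while Nnat came to 0.89 and Ddc to 0.34.

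The Cre transgene itself moved no member past the test. In RIP-Cre against wt, 0 of 35 members were called in limma, beside 0.0% of all genes, and 0 of 35 had an unadjusted p under 0.05. The change nearest to the threshold was that of Cd81 (-0.36, unadjusted p = 0.0571 in limma, adjusted p = 1). Igf2 read 8.45, 7.92 and 8.27 in wt and 8.34, 8.64 and 8.24 in RIP-Cre, and Grb10 9.21, 9.42 and 9.21 and 9.52, 9.08 and 9.44, with overlap for both. Member changes between these groups ran from -0.89 (Dcn) to 0.30 without passing. The Dcn value moved with wt array 1 (10.56, against 7.33 and 7.25 on wt arrays 2 and 3), and the next widest, -0.68 for Slc22a18, with wt array 3 (9.52, against 7.59 and 7.61 on wt arrays 1 and 2).

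The region between Dlk1 and Dio3 holds, besides the members, many microRNA genes on the maternal copy, and 48 genes of the region were tested: 40 microRNA genes, 3 protein-coding genes, 2 long RNAs and 3 small nucleolar RNAs. This look at the microRNA genes was added after the data were seen. With Men1 loss 8 of 40 microRNA genes were called higher and 10 lower, with Rbp2 loss 0 and 4, and in the double knockout 8 and 4. These are 45%, 10% and 30% of the microRNA genes, beside 53.5%, 13.4% and 33.7% of all genes, so on the deposited values none of the shares stood above that of all genes. Their median changes were -0.05, -0.06 and 0.10 in that order, beside 1.63, 0.84 and 1.40 for Rian. Under cyclic loess scaling the counts were 10 and 5, 1 and 1, and 11 and 2 of 40, beside 34.5%, 9.42% and 25.3% of all genes. There the shares with Men1 loss and in the double knockout stood only a few genes above those of all genes. This difference was not tested and is not read as a result about the microRNA genes. With the array median as a covariate the counts were 0 in each comparison, beside 1.99%, 0.211% and 1.4% of all genes. The microRNA genes with at least 2-fold called changes after Men1 loss were Mir377 (1.56, adjusted p = 0.00512), Mir376b (1.04, adjusted p = 0.00238), Mir376a (1.01, adjusted p = 0.0117) and Mir412 (-1.01, adjusted p = 0.00171). Their mature RNAs are shown to tell these close neighbours apart, from RefSeq on GRCm38.p6, with the seed (bases 2 to 8) in capitals. The probe sets name the gene and do not say which part of its transcript was read. The values cannot be taken as levels of the mature RNAs.
miR-376b-5p: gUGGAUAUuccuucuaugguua
miR-376b-3p: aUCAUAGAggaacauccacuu
miR-376a-5p: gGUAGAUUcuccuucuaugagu
miR-376a-3p: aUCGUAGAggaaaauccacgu
miR-377-5p: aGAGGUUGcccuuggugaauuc
miR-377-3p: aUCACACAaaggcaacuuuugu
miR-412-5p: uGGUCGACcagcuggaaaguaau
miR-412-3p: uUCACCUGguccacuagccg
All 8 mature RNAs have different seeds, those of miR-376a-3p and miR-376b-3p included. Mir376a and Mir376b lie close together on chromosome 12 and are alike in sequence, so their probe sets may share signal. In the double knockout Mir377 rose by 1.76, Mir376b by 0.79, and Mir412 fell by 0.67.

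**Figure D4:**
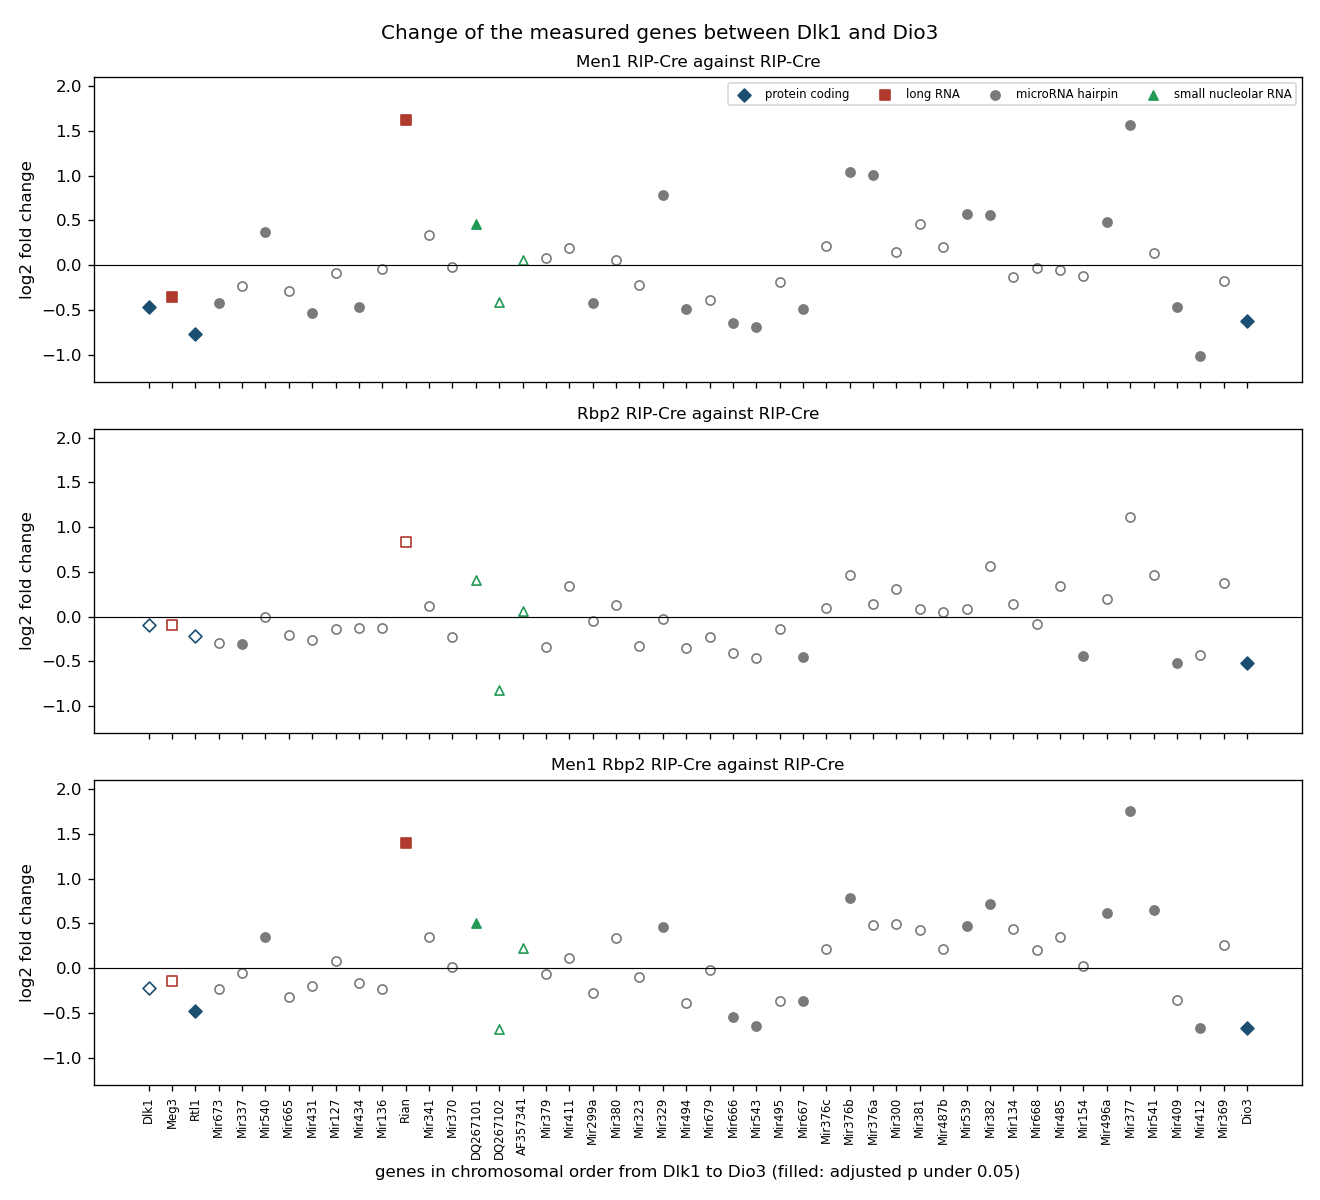
Log2 fold change against RIP-Cre (vertical axis) of the 48 measured genes between Dlk1 and Dio3 in their order along the chromosome (horizontal axis), for Men1 RIP-Cre, Rbp2 RIP-Cre and the double knockout; filled points passed limma. With Men1 lost, 10 genes were called higher and 14 lower, with both signs along the whole region.

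For context, the nearest tested protein-coding genes were read on each side of the 16 members given on every array. Genes of the set and of a second list of imprinted genes, given below, were passed over. Imprinting was not checked further, so some of the neighbours may themselves be imprinted. Of these 22 neighbours, 2 were called higher and 7 lower with Men1 loss (40.9%, beside 53.5% of all genes). The neighbours of Nnat, Src and Ctnnbl1, did not pass (0.00 and -0.17), nor did those of Plagl1, Sf3b5 and Zc2hc1b (-0.15 and -0.13). Next to Igf2, Mrpl23 rose (0.63, adjusted p = 0.00305) and Ins2, an insulin gene, did not pass (0.12). Ins2 was high on every array (13.54 to 13.74), and whether a rise could show at that level was not tested. Beside Grb10 and Ddc, Fignl1 did not pass (0.30) and Cobl fell (-0.75). Around Peg12 and Ndn, Atp10a (-0.46) and Chrna7 (-0.26) fell, which is the direction of Peg12 and not of Ndn. Around Peg10 and Sgce, Casd1 rose (0.68), opposite to both members, and Pon1 did not pass (-0.31). Beside the Dlk1-Dio3 cluster Begain fell (-0.61) and Ppp2r5c did not pass (0.03). Gatm, which did not pass with Men1 loss, lay between Slc28a2b (-1.53) and Spata5l1 (-0.57), which both fell, and of the neighbours of H13 Id1 fell (-0.53).

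The members were also counted by the parental copy that a list assigned to each, and this list was written after values had been seen. It does not show that these copies are the ones expressed in islets, which the arrays cannot tell. Dcn, for example, is imprinted in the placenta. With Men1 loss 6 of 18 paternally expressed members rose and 8 fell, and 4 of 17 maternally expressed members rose and 4 fell, beside 15.7% of all genes higher and 37.8% lower. With Rbp2 loss 2 of 18 paternally expressed members rose and 2 fell, and 3 of 17 maternally expressed members rose and 0 fell, beside 6.7% of all genes in each direction. In the double knockout the counts were 4 and 3 of 18, and 6 and 4 of 17, beside 13% and 20.6%. The difference between the parental classes was not tested.

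Other lists of related genes were counted in the same fit. Of 19 tested imprinted genes outside the set, 3 rose and 5 fell with Men1 loss, which is 42.1% beside 53.5% of all genes. The 3 that rose were Th (1.00), the tyrosine hydroxylase gene that lies beyond Ins2 from Igf2, Trpm5 (0.57), a cation channel gene, and Inpp5f (0.39), a phosphoinositide phosphatase gene. Those that fell most were Tfpi2 (-0.77), a protease inhibitor gene, Mcts2 (-0.66) and Sfmbt2 (-0.45), a Polycomb group gene. Of 17 genes that set or keep imprints, 2 rose and 5 fell, which is 41.2% beside the same 53.5%. Smchd1, a structural protein of silent chromatin, rose by 0.61 and Zfp445, a zinc finger protein that keeps imprints, by 0.28. Dppa3, an egg factor that protects methylation, fell by 0.66, Dnmt3l, a cofactor of the DNA methyltransferases, by 0.57 and Tet1, which oxidises methylcytosine, by 0.43. Zfp57 (0.01), Trim28 (0.07), Dnmt1 (-0.05) and Ctcf (0.11) did not pass. Of 13 tested insulin and IGF pathway genes outside the set, 4 rose and 3 fell, which is 53.8% and thus close to the share of all genes. With Men1 loss the IGF binding protein genes Igfbp7 and Igfbp5 rose by 1.05 and 0.77 and the kinase subunit gene Pik3ca by 0.41, while Igf2bp1, which encodes a binding protein of IGF2 mRNA, fell by 0.58, Igf1 by 0.56 and the receptor substrate gene Irs2 by 0.50. Igfbp7 and Igfbp5 also rose with Rbp2 loss (0.88 and 0.42) and in the double knockout (1.00 and 1.00).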

How the data were processed

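The authors deposited a log2 intensity for each of 35512 probe sets on each of 17 arrays. That the base is 2 follows from the low values, of which 82.3% lie at the log2 of a whole multiple of 0.25, against 9.03% of numbers with 2 decimals. For the authors' software, background correction and normalization, the entry is: not given in the sources used here. Precision is limited by how many arrays there are. No array was a copy of another (smallest root mean square difference 0.22).

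Probe sets were joined to symbols with the platform's gene table: 21789 named 1 gene, 1621 several and 12102 none, and 21698 of the first were found in RefSeq. Where a gene had several probe sets, the one with the highest mean level was taken (999 genes had more than 1, no member among them). Groups came from the sample titles. Limma 3.58.1 in R 4.3.3 (lmFit, eBayes) fitted 1 mean per group to all 17 arrays, with Benjamini-Hochberg adjustment over 19938 genes within each of 7 comparisons. The procedure was tested on simulated data. The alternatives were other scalings and filters, other sets of control arrays, the repeat number as a block and each array left out. Counts at 2-fold and the microRNA genes were added after seeing the data. Members and gene lists were chosen with earlier results of these data known. Values on every array are given for members called in a knockout against RIP-Cre with a change of at least 0.5. Of each other list at most 3 genes per direction were named by size, apart from genes named as not passing, which were chosen after their values were seen.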

Additional observations from a re-analysis of the deposited data

Results flagged for a closer look

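In 70 groups of 4 arrays checked for an array that stands apart, 1 was found, where chance alone gives about 1 in 20. Nnat on array 1 of Rbp2 RIP-Cre was at 9.55, against 8.90 to 9.00 on the other arrays of that group (gap over range 0.846, critical value 0.829). Rbp2 RIP-Cre array 1 also had the lowest median of its group (7.82). The effect of Rbp2 loss with Men1 lost, minus that with Men1 present, passed limma's interaction test for 3 members: Ndn at -0.926 (adjusted p = 0.0482), Peg10 at 0.694 (adjusted p = 0.042) and Igf2r at -0.468 (adjusted p = 0.0409). Each of these calls ended when single arrays were left out.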

How the results depend on the processing

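No called member changed direction under any alternative. At Men1 loss 23 members were called with cyclic loess and 22 with quantile scaling. The array median runs with genotype (7.86 to 7.87 in Men1 RIP-Cre, 7.97 to 8.16 in RIP-Cre). As a covariate it therefore cannot be fully told apart from Men1 loss. With it, members called were 4 (Men1 loss), 0 (Rbp2 loss), 3 (double) and 0 (interaction), and members at 2-fold or more 4 (Men1 loss) and 2 (double). All genes called with it were 396 (Men1 loss), 42 (Rbp2 loss), 280 (double), 510 (double against Rbp2 RIP-Cre) and 20 (interaction). All-gene calls at Men1 loss were 6875 with cyclic loess, of which 3677 higher, and 6983 with quantile scaling, of which 3366 higher. Cyclic loess gave 360 calls in all genes for the double against Rbp2 RIP-Cre, and quantile scaling 340 for the interaction and 1 member for the double against Men1 RIP-Cre. Leaving out genes below the 25th percentile of level gave 1400 interaction calls, 5 of them members, and 4 members for the double against Men1 RIP-Cre. Fitting only the arrays compared gave 1080 calls for Rbp2 loss, 1375 for the interaction and 1 member for the double against Men1 RIP-Cre. Pooling wt with RIP-Cre gave 6221 calls for Rbp2 loss (13 members) and 3256 for the interaction (7 members). The cause of these moves was not tested.

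With the repeat number as a block, 23 members were called at Men1 loss, 7 at Rbp2 loss and 17 in the double knockout. All genes called under this setting were 10903, 2583 and 6381 in the same order. For the double against Men1 RIP-Cre 1 member was called (241 of all genes), and for the interaction 6 (1933 of all genes). Whether the numbers pair the samples could not be settled. Deviations of arrays with the same number correlated at a median of 0.011 (31 pairs, -0.298 to 0.449). Those with different numbers correlated at a median of -0.005 (84 pairs, -0.609 to 0.475). With so few arrays per group, these medians show no pairing but cannot exclude it.

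With each array left out in turn, members called ran from 20 to 22 at Men1 loss, 1 to 9 at Rbp2 loss, 8 to 18 in the double knockout, 0 to 1 and 3 to 4 for the double against Men1 RIP-Cre and Rbp2 RIP-Cre, and 0 to 9 for the interaction. Members at 2-fold or more ran from 6 to 8, 0 to 1 and 5 to 6. Calls in all genes ran from 6174 to 11006, 223 to 3382, 2371 to 7291, 111 to 272, 109 to 272 and 22 to 2783 in the same order, and 0 to 26 for RIP-Cre against wt.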

Other observations

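Dcn, which encodes the matrix proteoglycan decorin and is imprinted in the placenta, read 10.56 on wt array 1 and between 6.61 and 8.22 on the other 16 arrays. The mean of the mesenchymal marker genes was 8.46 on that array, against 8.22 and 8.27 on wt arrays 2 and 3, and that of the lymphocyte markers was 8.41, against 6.88 and 7.26.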
